A study of Mus musculus with 32 samples.

Results

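Schwann cell and myelin genes were followed in RNA sequencing of whole mouse bladders. The 8 genes are Sox10, Mbp, Prx, Pmp22, Cdh19, S100b, Gfra3 and Xkr4, and they were found by matching the Ensembl identifiers of the count table to these symbols. They are 8 of 32285 genes in the table, which covers 32 bladders of female C57BL/6 mice. Of the mice that were left untreated, 6 were young, at 2 months of age, 5 were middle-aged, at 10 months, and 6 were old, at 26 months. The other 3 groups were also 26 months old and had been gavaged on 3 consecutive days of each month from month 21 to month 26. These received water (n = 5), the vehicle of Phosal 50 PG, polyethylene glycol and ethanol (n = 4), or D+Q (n = 6), which is dasatinib at 5 mg/kg/day with quercetin at 50 mg/kg/day in that vehicle. Dasatinib is a tyrosine kinase inhibitor and quercetin a plant flavonoid, given together as a senolytic. Each library held the RNA of 1 bladder with all of its layers, its nerves included.

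Schwann cells are the glia of peripheral nerves. Some of them wrap single large axons in myelin, while the others hold bundles of thin axons without myelin. Both kinds accompany the autonomic and sensory fibers by which the bladder holds and empties urine. Sox10 is the transcription factor that Schwann cells need at every stage, and with Egr2 it turns on the genes of myelin, among them Mbp, Pmp22 and Prx.

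The counts summed over genes were 15088372 to 52650259 per bladder, and 2 young bladders had the fewest. Levels are given as CPM, which are counts scaled to library size with TMM factors. A floor of 3 counts amounted to 0.0570 to 0.199 CPM of the library total. Of the 8 genes, Xkr4 was near it. It had 3 to 34 counts per bladder and was at that floor in young replicate 3. Each of the other genes had at least 78 counts in every bladder. Lists of other cell types were read beside the members. The 5 oligodendrocyte markers summed to 0.959 to 2.05 TPM, a level scaled by exon length as well as library size, over all bladders. Opalin, a defining gene of that list, was at 0 counts in all 32 bladders, and Olig2 had at most 2 counts. The 5 melanocyte markers, which matter because melanocytes also use Sox10, summed to 2.51 to 5.55 TPM, with Tyr at no more than 1 count. The oligodendrocyte marker Mobp and the melanocyte marker Pmel were the only genes of these lists with enough counts to be tested. Neither the labels nor the methods give a sequencing batch, so no values within batches could be computed. Fewer Schwann cells and less RNA per Schwann cell cannot be told apart in whole bladders.

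Among themselves the members covered a wide range. Mean levels in young bladders, per length, were 283 TPM for Pmp22, 27.7 TPM for Mbp, 19.8 TPM for Gfra3, 16.5 TPM for Sox10, 14.2 TPM for S100b, 10.7 TPM for Cdh19, 9.03 TPM for Prx and 0.228 TPM for Xkr4. Pmp22 thus had by far the highest level, and Xkr4 the lowest. Pmp22 is a myelin protein that fibroblasts and epithelia also make, and S100b, Prx and Gfra3 likewise occur outside Schwann cells. The gene-level count of Pmp22 pools transcripts from several starts. RefSeq lists 4 of them on build GRCm38.p6, and the 250 bases before the outermost starts are shown here because the count cannot separate what begins at either. The upstream window, chr11:63128732-63128981 on the + strand, has a GC content of 48.8%, and the downstream window, chr11:63132553-63132802 on the + strand, has 73.6%. Both are printed from 5′ to 3′ in lower case, without capitals since no motif is marked in them.

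Pmp22 upstream start: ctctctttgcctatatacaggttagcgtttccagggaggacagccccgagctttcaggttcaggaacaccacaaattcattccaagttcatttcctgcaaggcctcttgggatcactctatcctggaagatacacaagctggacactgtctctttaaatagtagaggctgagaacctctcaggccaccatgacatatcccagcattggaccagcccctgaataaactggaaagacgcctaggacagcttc
Pmp22 downstream start: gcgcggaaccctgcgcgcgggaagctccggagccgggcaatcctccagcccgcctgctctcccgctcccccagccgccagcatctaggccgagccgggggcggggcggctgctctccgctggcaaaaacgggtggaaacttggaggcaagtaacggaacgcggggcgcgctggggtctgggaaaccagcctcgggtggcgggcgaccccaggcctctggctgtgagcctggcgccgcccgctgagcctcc

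The letters ACAAAG and ACAATG, cores bound by SOX factors, were searched on both strands of the RefSeq promoter windows, which hold 250 bases before and 50 after a start. Prx and S100b have 1 window each and Pmp22 has 4, and none of these 6 windows held either core. Of 32851 promoters of the same length, 28.6% held at least 1 of them. A window without these letters says nothing of SOX10 itself.

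Sox10 (ENSMUSG00000033006, chr15:79154908-79165240 of mm10, - strand) had its highest level in the young group. Its levels in young bladders were 13.3, 14.2 and 16.2 CPM (lowest, median and highest). Middle-aged bladders stood at 7.21, 9.79, 13.1, 9.12 and 8.44 CPM. Untreated old bladders lay lower, at 6.04, 8.0 and 8.10 CPM. The young group overlapped neither the middle-aged nor the old group, while middle-aged replicate 1 lay within the old range. The 3 gavaged groups had medians of 7.33 CPM with water, 8.24 CPM with vehicle and 9.03 CPM with D+Q, and all 3 overlapped the untreated old group.

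Sox10 fell by 0.59 ± 0.13 on the log2 scale (SE) from young to middle-aged bladders (adjusted p = 0.0129, edgeR's quasi-likelihood test with Benjamini-Hochberg adjustment over all genes tested, as for every adjusted p here). From young to old bladders it fell by 0.93 ± 0.084, to 0.525 times the young level (adjusted p = 8.12e-06). Between middle-aged and old bladders its log2 fold change was -0.33 ± 0.13, which did not pass (adjusted p = 0.0926). Without middle-aged replicate 1 that change was -0.42 and passed (adjusted p = 0.0323). The fall from young to old passed in all 12 fits that left out 1 bladder, with log2 fold changes from -0.95 to -0.87.

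**Figure D1:**
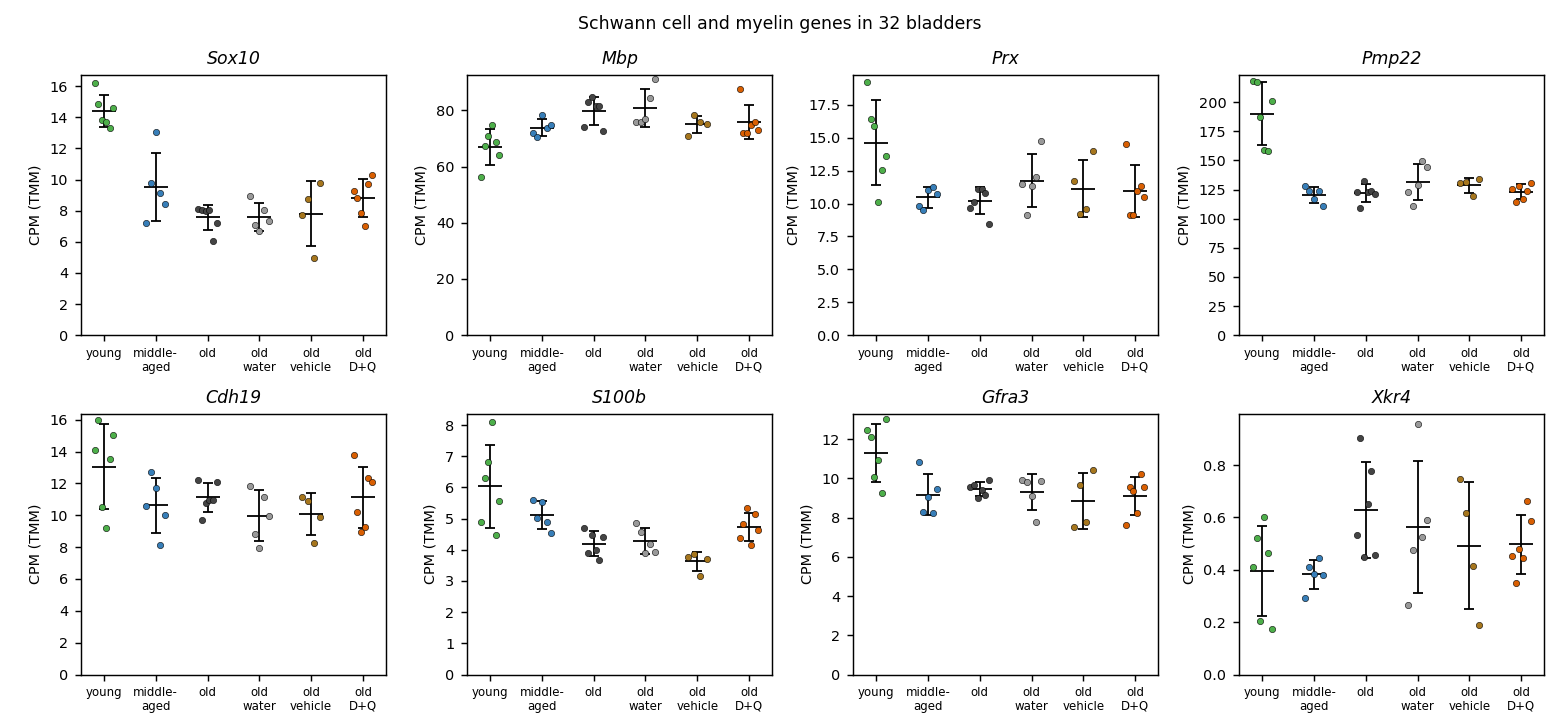
Levels of the 8 genes in each of 32 bladders, in CPM with TMM factors on a linear axis from 0. Points are bladders, and horizontal bars with whiskers are the mean ± SD of the group. Young bladders stand above all other groups for Pmp22, and the young Sox10 values of 13.3 CPM and more exceed every other bladder's.

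Mbp (ENSMUSG00000041607, chr18:82475146-82585637, + strand) encodes myelin basic protein, which holds the cytoplasmic faces of compact myelin together. Its levels were 56.2, 68.0 and 74.9 CPM in young bladders (lowest, median and highest). Middle-aged bladders had 71.8, 70.5, 78.5, 73.9 and 74.7 CPM. In untreated old bladders it reached 72.7, 81.7 and 84.8 CPM. The groups overlapped, and Mbp differed from Sox10, Pmp22 and Prx in that its level rose. From young to old the log2 fold change was 0.25 ± 0.064 (adjusted p = 0.0106), a level 1.19 times the young one. The 2 shorter spans had log2 fold changes of 0.15 ± 0.066 (middle-aged against young, adjusted p = 0.155) and 0.11 ± 0.045 (old against middle-aged, adjusted p = 0.0993). Under limma, the rise over the whole span was 0.17 (adjusted p = 0.0616) on log2 of the deposited values plus 1. It was 0.22 (adjusted p = 0.0593) with 0.1 added in place of 1. The rise thus passed on counts and not on these scales. There the added 1 stands for 10 TPM and 0.1 for 1 TPM, beside a young Mbp mean of 27.7 TPM, and an added constant shrinks a log2 change. These scales also lack TMM factors, and limma is a different test. Which of these differences cost the call was not tested. The Mbp locus also gives rise to transcripts outside myelin, including in blood cells, and gene counts do not separate these.

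The ratio of Mbp to Sox10, both in TPM, gives the balance of the 2 genes within a bladder. It was 1.25, 1.74 and 1.97 in young bladders (lowest, median and highest). Middle-aged bladders had ratios of 3.59, 2.59, 2.17, 2.92 and 3.19. Old bladders had 3.30, 3.69 and 4.87. Every middle-aged and old bladder thus had a higher ratio than every young one, whereas middle-aged replicate 1, at 3.59, lay within the old range. Ratios ran from 3.06 to 4.47 with water, from 2.76 to 5.50 with vehicle and from 2.56 to 3.84 with D+Q. Immune cell transcripts moved over the same ages. Ptprc, the pan-leukocyte antigen CD45, was 2.44 times as high in old as in young bladders (adjusted p = 0.00148). The 8 immune markers summed to 78.2 to 112 TPM in young, 86.4 to 103 TPM in middle-aged and 177 to 287 TPM in old bladders. All 8 were higher in old than in middle-aged bladders, beside 13% of all genes tested. The young and middle-aged sums overlapped. Within groups Pearson's r of Mbp with Ptprc was -0.13 over 32 bladders, which share depth and normalization. The part of immune cells in the Mbp values was not tested.

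**Figure D2:**
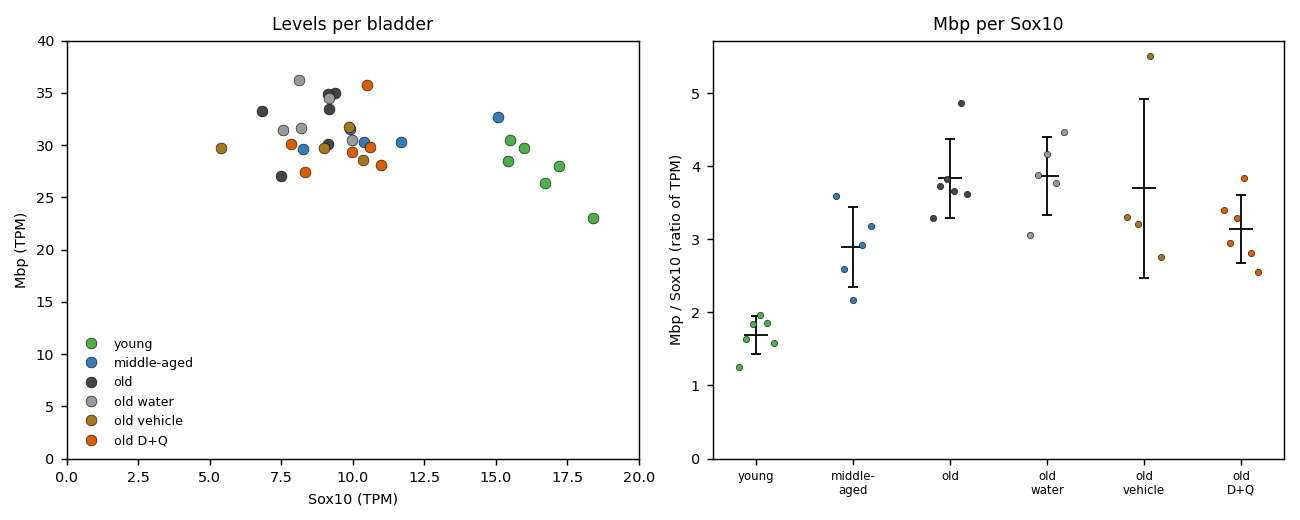
Mbp against Sox10 in TPM for each of 32 bladders (left, both axes from 0) and the ratio of Mbp to Sox10 by group (right, bars are mean ± SD). Young bladders lie to the right, with ratios of 1.25 to 1.97, and no bladder of another group falls below 2.17.

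Pmp22 (ENSMUSG00000018217, chr11:63128982-63159547, + strand) encodes a membrane protein of compact myelin whose gene dosage underlies inherited neuropathies. Its levels were 158, 194 and 218 CPM in young bladders (lowest, median and highest). They were 128, 124, 117, 124 and 111 CPM in middle-aged and 109, 123 and 132 CPM in old bladders. All young bladders lay above all of the others in the middle-aged and old groups, which covered the same range. Pmp22 fell by 0.64 ± 0.087 on the log2 scale from young to middle-aged (adjusted p = 0.00149), to 0.640 times the young level. From middle-aged to old its log2 fold change was 0.01 ± 0.049, with a 95% interval of -0.09 to 0.12 (adjusted p = 0.866). Its fall was thus measured between 2 and 10 months. Fibroblast genes fell over the same span. Of 5 fibroblast markers 3 were lower in middle-aged than in young bladders, beside 5.85% of all genes tested. Col1a1 stood at 0.476 and Col3a1 at 0.397 times the young level. The sum of the 5 went from 5306 to 9553 TPM in young to 3896 to 4534 TPM in middle-aged bladders. Within groups, Pmp22 followed Col1a1 (Pearson's r 0.67, Spearman's rho 0.48 over 32 bladders), Prx (0.61 and 0.48) and Cdh19 (0.46 and 0.42). Its correlation with Sox10 was weaker (0.25 and 0.29). The part of fibroblasts in the Pmp22 values was not tested.

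Prx (ENSMUSG00000053198, chr7:27497388-27520214, + strand) encodes periaxin, a scaffold that anchors the myelin sheath to the surrounding basal lamina. Its exons overlap those of Gm15541 on the other strand, and the strandedness of counting is not stated, so reads of the pair may not be separated. Young bladders had 10.1, 14.7 and 19.3 CPM (lowest, median and highest). Middle-aged bladders had 9.82, 9.51, 11, 11.3 and 10.7 CPM, and old bladders had 8.48, 10.4 and 11.1 CPM. The groups overlapped through young replicate 4, which had the lowest young value. Prx fell by 0.47 ± 0.13 on the log2 scale to middle age (adjusted p = 0.0393) and by 0.52 ± 0.13 to old age (adjusted p = 0.0116). The first of these calls was lost, with adjusted p of 0.0536 to 0.0955, in 9 of the 11 fits that left out 1 bladder, and it held without young replicate 4 or young replicate 5. It was also lost under limma (adjusted p = 0.0749 with 1 and 0.0727 with 0.1 added). The second held in all 12. Endothelial cells of some organs make Prx too, and the 8 endothelial markers summed to 267 to 302 TPM in young, 238 to 264 TPM in middle-aged and 198 to 242 TPM in old bladders. Within groups, Prx and the endothelial gene Cldn5 had a Pearson's r of -0.42 over 32 bladders, while Prx and the fibroblast gene Col1a1 had one of 0.51 (Spearman's rho 0.30). The part of endothelial cells and fibroblasts in the Prx values was not tested.

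Cdh19 (ENSMUSG00000047216, chr1:110888326-110977584, - strand) encodes a cadherin that marks Schwann cells and their precursors. Its levels spread more in young bladders, at 9.19, 13.8 and 16 CPM (lowest, median and highest), than in old ones, at 9.68, 11 and 12.2 CPM. The middle-aged values of 10.6, 12.7, 11.7, 8.15 and 9.99 CPM lay across both. No age comparison passed, with log2 fold changes of -0.30 ± 0.15 to middle age (adjusted p = 0.214), 0.07 ± 0.10 from there to old age (adjusted p = 0.691) and -0.24 ± 0.12 over the whole span (adjusted p = 0.185). The 95% interval of the last ran from -0.50 to 0.03. Without young replicate 4, the lowest young bladder, the last was -0.32 and passed (adjusted p = 0.0359).

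S100b (ENSMUSG00000033208, chr10:76253853-76261159, + strand) encodes a calcium-binding protein by which glia are commonly stained. Young bladders had 4.48, 5.94 and 8.11 CPM (lowest, median and highest). Middle-aged bladders had 5.61, 5.01, 5.53, 4.88 and 4.53 CPM. In old bladders the values were 3.67, 4.21 and 4.71 CPM. Each group overlapped the next. S100b fell by 0.29 ± 0.089 on the log2 scale from middle-aged to old (adjusted p = 0.0343) and by 0.51 ± 0.14 from young to old (adjusted p = 0.0154), but its change of -0.21 ± 0.15 to middle age did not pass (adjusted p = 0.374). The middle-aged to old call was lost (adjusted p = 0.0532 to 0.0805) without middle-aged replicate 1, 2 or 3 or old replicate 2, 4 or 5, without a filter (adjusted p = 0.0699) and in the joint fit (adjusted p = 0.10).

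Gfra3 (ENSMUSG00000024366, chr18:34689898-34720387, - strand) is the co-receptor for artemin, a ligand of the GDNF family that signals through Ret. It is known from sensory neurons and from Schwann cells and their precursors. Young bladders had 9.23, 11.5 and 13 CPM (lowest, median and highest), and old bladders had 8.98, 9.50 and 9.93 CPM. Middle-aged bladders had 10.8, 8.30, 9.03, 8.24 and 9.45 CPM. The old values were close together and overlapped the low end of the young ones. Gfra3 fell by 0.26 ± 0.087 on the log2 scale from young to old (adjusted p = 0.0425). This call was lost, with adjusted p of 0.0582 to 0.101, without young replicate 1, 2 or 6 or any 1 of the 6 old bladders, and also without a filter (adjusted p = 0.0648). To middle age the change was -0.29 ± 0.11 (adjusted p = 0.0910), which passed under DESeq2 (adjusted p = 0.0486), in the joint fit of all 6 groups (adjusted p = 0.0343) and without young replicate 5 (-0.35, adjusted p = 0.0402).

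Xkr4 (ENSMUSG00000051951, chr1:3205901-3671498, - strand) belongs to the XK-related proteins, of which some scramble membrane phospholipids. Its young levels were 0.174, 0.439 and 0.601 CPM (lowest, median and highest). Middle-aged levels were 0.294, 0.412, 0.383, 0.444 and 0.380 CPM, and old levels were 0.451, 0.593 and 0.903 CPM. All old bladders exceeded all middle-aged ones, by as little as 14 counts in old replicate 3 against 16 counts in middle-aged replicate 4 of a deeper library. Xkr4 rose by 0.71 ± 0.23 on the log2 scale from middle-aged to old (adjusted p = 0.0382). That call was lost (adjusted p = 0.0560 to 0.0858) without middle-aged replicate 1, 2, 3 or 5 or old replicate 2, 4 or 5. It was lost too under DESeq2 (adjusted p = 0.0682), without a filter (0.0525), in the joint fit (0.125) and under limma (0.203 with 1 and 0.130 with 0.1 added). Over the whole span its change of 0.65 ± 0.30 did not pass (adjusted p = 0.132).

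Counted together, 3 of the 8 members were lower and 0 higher in middle-aged than in young bladders, where 10.8% of all genes tested passed, 4.96% as higher and 5.85% as lower. That share stood for 1811 genes, and it was 728 to 2794 genes when 1 bladder was left out, with a move of over 1.5 times without young replicate 1, 2, 4 or 6 or middle-aged replicate 1, 2, 3 or 5. In old against middle-aged bladders 1 was higher (Xkr4) and 1 lower (S100b), beside 24% of all genes, 13% as higher and 11% as lower. Higher genes were 54.3% of these calls, but 38.8% and 40.5% under limma with 1 and 0.1 added. In old against young bladders 5 were lower (Sox10, Pmp22, Prx, S100b and Gfra3) and 1 higher (Mbp), beside 25.1% of all genes. The lower calls took 12.4% and the higher calls 12.6% of all genes in that comparison. Groups did not overlap for 2 members (Sox10 and Pmp22) in middle-aged against young bladders, beside 6.97% of genes, and for the same 2 in old against young bladders, beside 12.7%. For old against middle-aged bladders this held for Xkr4, beside 14.6%. The median log2 fold change of the 8 was -0.29 to middle age, 0.03 from there to old age and -0.39 over the whole span. The medians over all genes tested were within 0.01 of 0, where TMM scaling places most genes by design. The comparisons share groups, so they are not independent of each other.

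**Figure D3:**
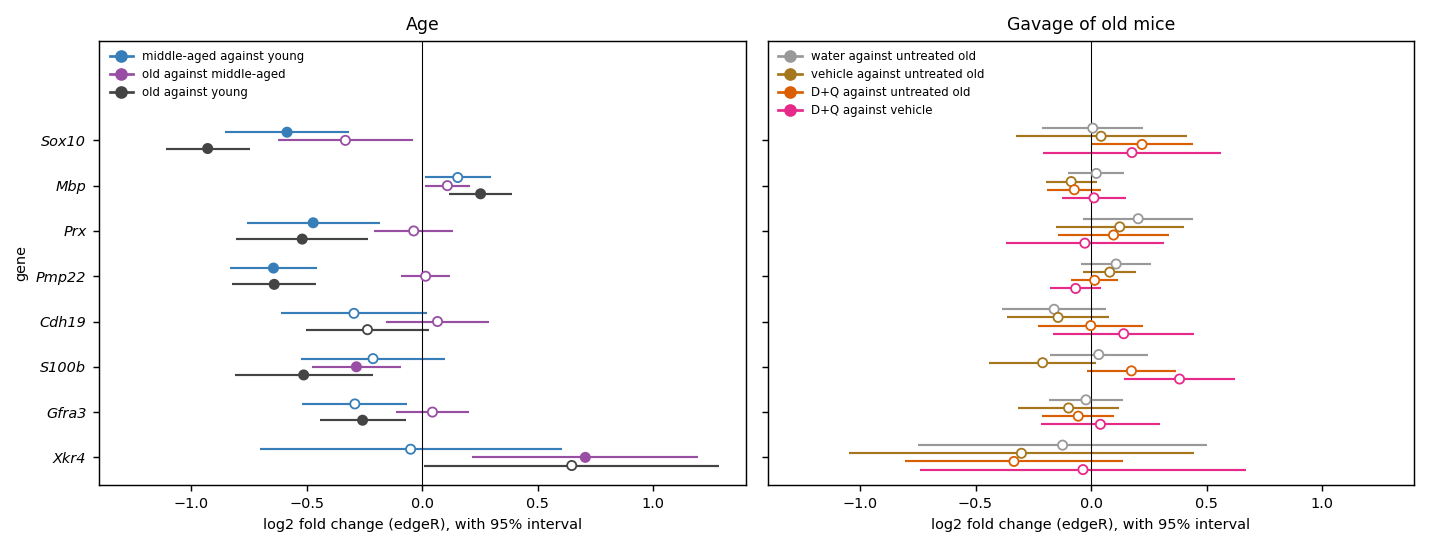
log2 fold changes of the 8 genes (edgeR) with 95% intervals, for the age comparisons (left) and the gavage comparisons (right). Filled points have an adjusted p under 0.05, and the legend is drawn filled throughout. Sox10, Prx and Pmp22 lie left of 0 in both comparisons with the young group, Mbp lies to the right, and no point of the gavage panel is filled.

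Other Schwann cell genes were read from lists of the same biology. Of 13 Schwann cell identity genes, 7 were lower and 0 higher in old than in young bladders, beside 12.4% of all genes lower and 12.6% higher. Foxd3, a neural crest transcription factor, stood at 0.490 times the young level (adjusted p = 5.29e-05), and the adhesion molecule Ncam1 stood at 0.519 times (adjusted p = 7.06e-07). Gpr37l1, an orphan receptor of glia, was at 0.601 times the young level. Ncam1 passed in both shorter spans, at 0.694 times the young level in middle-aged and 0.752 times the middle-aged level in old bladders. Which cells made the Ncam1 transcripts was not tested. The neuregulin receptor Erbb3, which urothelium also makes, changed by -0.02 ± 0.069 on the log2 scale over the whole span (adjusted p = 0.885), at mean levels of 56.9 and 54.8 TPM. The median of the list was -0.29 from young to old.

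The myelin list was less uniform. Of its 16 genes 11 had enough counts to be tested. The 5 that did not were Pmp2, Gldn, Gjb1, Ugt8a and Cldn19. From young to old 2 of the 11 were lower and 0 higher, beside 12.4% of all genes lower, namely the connexin gene Gjc3 at 0.543 and the Schwann cell hedgehog ligand Dhh at 0.573 times the young level. In middle-aged against young bladders 1 was lower (Cnp, at 0.859 times), beside 5.85% of all genes. From middle-aged to old 3 were higher and 5 lower, beside 13% of all genes higher and 11% lower. The myelin-associated glycoprotein gene Mag was 1.95 times (adjusted p = 0.0210), the myelin transcription factor gene Egr2 1.65 times (adjusted p = 0.0449) and the phosphodiesterase gene Cnp 1.18 times as high as in middle-aged bladders. Ncmap, Nfasc, Fa2h, Gjc3 and Dhh were lower there. Leaving out 1 bladder left 4 to 7 calls, with 4 without middle-aged replicate 3 and 5 without middle-aged replicate 1 or old replicate 5 or 6. With all 6 groups in a single fit 2 passed (Mag and Fa2h), and with the replicate block 2 passed (Nfasc and Fa2h). Mag was low in all groups, with at most 1.38 TPM in a young, middle-aged or untreated old bladder. Over the whole span Egr2 stood at 0.878 times the young level (adjusted p = 0.766), and it also responds to activity in other cells.

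**Figure D4:**
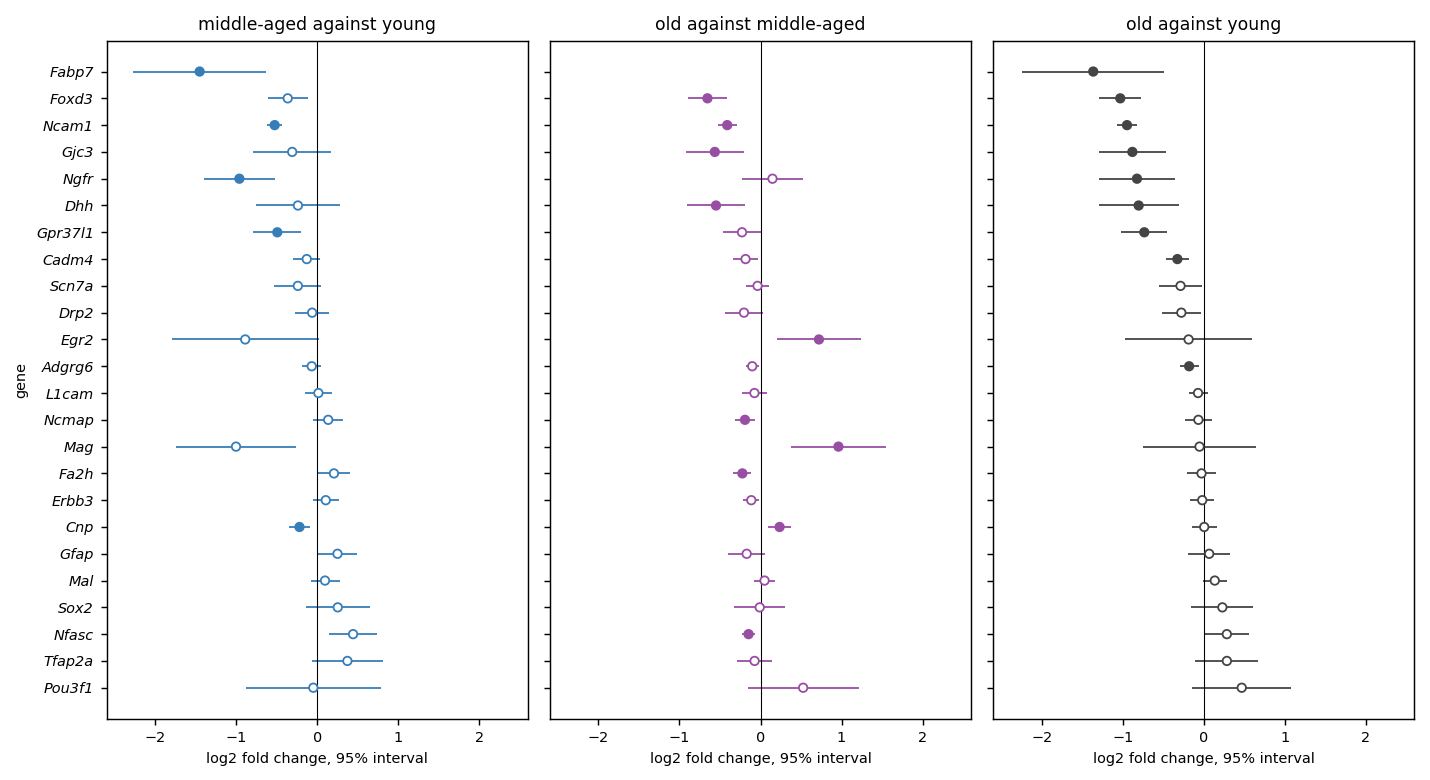
log2 fold changes with 95% intervals of 24 tested genes of the Schwann cell identity and myelin lists in 3 age comparisons, ordered by old against young. Filled points have an adjusted p under 0.05, and a gene without a point was not tested there. The filled points of the right panel all lie below 0, down to -1.36 for Fabp7. That gene had too few counts to be tested in old against middle-aged bladders. Mag and Egr2 lie to the right in the middle panel.

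The other ligand and receptor genes of the GDNF family did not move as 1 group. In middle-aged against young bladders the ligand gene Artn was 1.24 times (adjusted p = 0.0196) and the GDNF co-receptor gene Gfra1 1.91 times as high (adjusted p = 0.00647), while the neurturin co-receptor gene Gfra2 was at 0.622 times the young level. Ret, the shared signaling receptor, was 1.69 times as high in old as in middle-aged bladders (adjusted p = 0.00819). Gfra4 was lower there, and 6 of the 7 tested genes had log2 fold changes below 0. Of all genes 13% were higher and 11% lower in that comparison. Over the whole span 1 of the 7 tested genes of this family was higher (Gfra1) and 2 were lower (Gfra2 and Gfra4), beside 12.6% and 12.4% of all genes. Of 7 genes that pass signals between axons and glia 1 was lower over that span, the neuregulin-processing protease gene Bace1 at 0.846 times the young level. Among neuronal genes 7 of 17 could be tested. The axonal growth gene Stmn2 and the neurofilament gene Nefh were higher in old than in young bladders, and the neurofilament gene Nefm was lower, at 0.489 times.

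Gavage and D+Q were compared in old bladders only. In none of the 4 comparisons did a member pass, and 3 of them share the untreated old bladders. Of all genes tested 1% passed for water against untreated old, and 0% passed for vehicle against untreated old, for D+Q against untreated old and for D+Q against vehicle. The 173 genes behind the share for water became 37 to 199 when 1 bladder was left out, with a move of over 1.5 times without water replicate 1, 4 or 5 or untreated old replicate 1, 2, 5 or 6, and 0 in the joint fit of all groups, under limma and with the replicate block. At an unadjusted p under 0.05 there were 0 members for water and 0 for vehicle, and 1 member for each of the D+Q comparisons, beside 16% of all genes for water, 8.39% for vehicle, 12.9% for D+Q against untreated old and 4.18% for D+Q against vehicle. The groups overlapped for all 8 members in the first 3 of these comparisons, where 2.87%, 2.21% and 0.599% of all genes did not overlap. DESeq2 likewise called 0 members in these comparisons. Over all genes it called 694 for water, 127 for vehicle, 172 for D+Q against untreated old and 13 for D+Q against vehicle.

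Sox10 was the member with the smallest p for D+Q against untreated old bladders. The D+Q values were 7.01, 9.03 and 10.3 CPM (lowest, median and highest), and 4 of 6 lay above the highest untreated old bladder at 8.10 CPM. Vehicle replicates 2 and 4, at 8.77 and 9.80 CPM, and water replicate 1, at 8.94 CPM, lay above it too. The log2 fold change was 0.22 ± 0.10, with a 95% interval of 0.000298 to 0.44 (adjusted p = 0.386). Against vehicle it was 0.18 ± 0.17 (interval -0.21 to 0.56, adjusted p = 0.994), where vehicle replicate 3 was low at 4.97 CPM.

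S100b had the lowest p for D+Q against vehicle. The D+Q bladders had 4.14, 4.72 and 5.33 CPM (lowest, median and highest), and the 4 vehicle bladders had 3.76, 3.86, 3.16 and 3.71 CPM. These groups did not overlap, which was so for 1.05% of all genes. The log2 fold change of 0.38 ± 0.11 (interval 0.14 to 0.62) did not pass (adjusted p = 0.994), with values of 0.33 to 0.41 when each bladder was left out in turn. Against untreated old bladders the D+Q change of S100b was 0.17 ± 0.089 (adjusted p = 0.422) and the groups overlapped, and vehicle against untreated old was -0.21 ± 0.10 (adjusted p = 0.615).

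For the other members the intervals give what the D+Q comparison with untreated old bladders allows. They were -0.08 to 0.12 for Pmp22, -0.19 to 0.04 for Mbp, -0.14 to 0.34 for Prx, -0.23 to 0.23 for Cdh19, -0.21 to 0.10 for Gfra3 and -0.80 to 0.14 for Xkr4, on the log2 scale. Water gave its largest member change in Prx, 0.20 ± 0.11 (adjusted p = 0.388), and vehicle in Xkr4, -0.30 ± 0.34 (adjusted p = 0.811). No gene of the Schwann cell identity, myelin, GDNF family or axon signal lists passed in a gavage comparison. Foxd3, which was lower in old than in young bladders, was 1.64 times as high with water (adjusted p = 0.0920, not passed).

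Within groups, so with each group's mean removed, the members were loosely tied. Sox10 had a Pearson's r of 0.50 with Cdh19, 0.32 with Prx, 0.26 with S100b, 0.25 with Gfra3, 0.25 with Pmp22, 0.01 with Mbp and -0.12 with Xkr4, over 32 bladders that share depth and normalization. Outside the members, Cadm4 (0.57) and Pou3f1 (0.55) of the Schwann cell and myelin lists were close to it, while Erbb3 (-0.0038) was not and Gfap (-0.46), of the identity list, went the other way. The 10 genes most like Sox10 among those with at least 10 counts in at least 16 bladders were Gnaz (0.71), Abca8b (0.67), Kcna6, Pias3, Msantd3, Adgra1, Sox18, Aloxe3, Stk32a and Rnf212 (0.61). Spearman's rho shared 4 of these 10, and without removing group means 3 were shared.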

How the data were processed

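The authors aligned the reads of a stranded total RNA library from each bladder to mm10 with STAR 2.7.3 and counted them per gene with Subread, by the submitters' processing notes. They deposited raw counts of 32285 genes together with each gene's summed exon length, the other deposited unit. Whether counting used strand is not given in the sources used here. The second deposited table gives log2 values, with 1 added to each count before scaling by exon length. Back on the linear scale each bladder adds up to 100000, so that values times 10 are TPM of the counts plus 1. No batch is given in the labels. No pair of bladders had identical counts.

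Counts were compared with edgeR 4.0.16 in R 4.3.3 (TMM, filterByExpr, quasi-likelihood test, Benjamini-Hochberg adjusted p under 0.05) in 7 comparisons, each fitted on its 2 groups. All 8 members passed the filter throughout. Likeness to Sox10 was Pearson's r of log2(CPM + 0.5) with group means removed. The members and 14 further lists were chosen with earlier results of these data known, and 2 genes of these lists are not reported here. Named genes were the members, at most 5 genes per list and comparison by smallest adjusted p, Erbb3 and Egr2, and the 10 genes most like Sox10. Genes at 0 counts, untested genes, list genes given by a correlation, and any further list gene were named after their values were seen. The floor of 3 counts covers counting error only. On simulated data for old against middle-aged bladders, with 17044 genes, 71% of genes changed by 0.5 and 95% of genes changed by 1 on the log2 scale were recovered. Of the calls there, 5.14% were false. Only genes with a mean over 1 CPM were changed, so these shares do not cover Xkr4, with a mean of 0.495 CPM.

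Alternatives were RLE size factors, DESeq2 1.42.0, no filter, a minimum of 10 counts in each bladder, a joint fit of the 6 groups, limma 3.58.1 on the second table with 1 or 0.1 added, a block for the replicate number, and leaving out single bladders. Under limma the added 1 stands for 10 TPM and 0.1 for 1 TPM, which shrinks the changes of low genes such as Xkr4. Promoters came from RefSeq (GRCm38.p6) and covered 3 of the 8 members. Tables and plots were made in Python 3.11.15 (pandas 2.3.3, matplotlib 3.10.9).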

Additional observations from a re-analysis of the deposited data

Results flagged for a closer look

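Mbp in D+Q replicate 1 stood at 87.7 CPM, while the nearest of the other 5 D+Q bladders had 75.7 CPM. This gap was 0.757 of the group's range and above Dixon's critical value for 6 samples. It was the only flag among 48 tests of a group and member, of which chance flags about 1 in 20. The same bladder also had the highest Prx (14.5 CPM) and Cdh19 (13.8 CPM) values of its group. Without any 1 D+Q or untreated old bladder, the log2 fold change of Mbp for D+Q against untreated old was -0.12 to -0.05, with an adjusted p of at least 0.200.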

How the results depend on the processing

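The 2 members called in old against middle-aged bladders became 1 (S100b) under DESeq2, with a minimum of 10 counts and under limma with 1 or 0.1 added, and 0 without a filter and in the joint fit of the 6 groups. Leaving out 1 bladder gave 2 to 4 members for middle-aged against young, 0 to 2 for old against middle-aged, 5 to 7 for old against young and 0 in each gavage comparison. Of the 10 genes most like Sox10, 4 were shared with Spearman's rho and 3 without removing group means. Over all genes, the 1811 calls in middle-aged against young were 2858 in the joint fit, and the 4110 in old against middle-aged were 2519. For water the 173 calls were 694 under DESeq2, 99 without a filter and 0 in the joint fit and under limma. The cause of these moves was not tested.

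For the 56 member fold changes, with all bladders kept, 414 values had the same direction and call, 13 lost the call, 3 gained it and 12 reversed. All 12 reversals were of changes that had not passed. With limma they were Pmp22 (-0.032 with 1 and -0.033 with 0.1 added) and Gfra3 (-0.00033 with 1) in old against middle-aged, Sox10 (-0.0061 with 0.1) for vehicle, and Pmp22 (-0.0115 with 1 and -0.0120 with 0.1) for D+Q against untreated old. In the joint fit it was Cdh19 for D+Q (7.7e-05).

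By the replicate numbers of the sample titles, the bladders showed no pairing. For some middle-aged, water and vehicle bladders these differ from the numbers in the count column names. The correlations and the replicate block used the title numbers. Pairing by the column numbers was not tested in comparisons with those groups. Deviations of same-numbered bladders had correlations from -0.309 to 0.209, and in no comparison was every pair above 0.1. With the replicate block 2 members passed in middle-aged against young (Prx lost, adjusted p = 0.107) and 3 in old against middle-aged (Mbp gained, adjusted p = 0.0381). Over all genes 716 passed with the block in middle-aged against young and 0 for water. The block reversed Prx in old against middle-aged (0.012), Sox10 (-0.0021) and Mbp (-0.0037) for water, Sox10 for vehicle (-0.081) and Gfra3 for D+Q against vehicle (-0.0135).

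Changes that had not passed also reversed when 1 bladder was left out. Their log2 ranges were -0.221 to 0.058 for Xkr4 in middle-aged against young. In old against middle-aged they were -0.068 to 0.0074 for Prx, -0.021 to 0.139 for Cdh19 and -0.019 to 0.041 for Pmp22. For water they were -0.055 to 0.057 for Sox10, -0.022 to 0.045 for Mbp, -0.014 to 0.070 for S100b, -0.381 to 0.011 for Xkr4 and -0.046 to 0.043 for Gfra3. For vehicle they were -0.082 to 0.211 for Sox10 and -0.0025 to 0.204 for Prx. For D+Q against untreated old they were -0.072 to 0.053 for Cdh19 and -0.014 to 0.041 for Pmp22. For D+Q against vehicle they were -0.036 to 0.032 for Mbp, -0.128 to 0.089 for Prx, -0.262 to 0.224 for Xkr4 and -0.030 to 0.118 for Gfra3. Depth limits Xkr4 most, with 3 to 34 counts per bladder.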

Other observations

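Genes of the other tissues of the bladder wall were read over the same ages. Of 5 smooth muscle genes 2 were lower in old than in young bladders, the contractile genes Acta2 at 0.784 and Cnn1 at 0.806 times the young level, and 1 (Myh11) fell between middle age and old age. Of 6 urothelial genes 3 fell between middle age and old age, the uroplakin genes Upk1a, Upk2 and Upk3a at 0.902, 0.855 and 0.876 times, and 0 passed in the other age comparisons. Of 6 adipocyte genes 0 passed. Of 5 skeletal muscle genes tested 3 were lower in old than in young bladders, with Mylk2 at 0.273 times. Between middle age and old age 2 of them rose (Myh1 and Myh2) and 2 fell (Mylk2 and Ckm). From young to old the 8 endothelial genes had 6 lower and 1 higher (Vwf), and the 5 fibroblast genes had 4 lower. The 1 oligodendrocyte gene (Mobp) and the 1 melanocyte gene (Pmel) with enough counts passed in no comparison. Over all genes tested 25.1% passed in old against young and 24% in old against middle-aged bladders.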
